A study of Mus musculus with 12 samples.

Results

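The genes described here are 7 markers of border-associated macrophages, *Mrc1*, *Cd163*, *Folr2*, *Lyve1*, *F13a1*, *Pf4* and *Cbr2*, in bulk RNA-sequencing of CD11b-positive cells from the mouse cerebral cortex. They were taken by name from the table of raw counts, in which the gene identifiers were matched to symbols with the GRCm38 annotation. All 7 were found among the 55487 listed genes and all 7 passed the filter on low counts, which kept 15425 genes.

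The 12 libraries came from 12 mice, 3 in each of 4 groups. The strains were WT and AppNL-G-F, a knock-in line whose own *App* locus holds a humanized sequence with mutations of familial AD, so that amyloid forms without a transgene. The treatments were PBS, called veh, and rh Bri2 BRICHOS R221E, a recombinant variant of a chaperone domain, given at 10 mg/kg. Every mouse, veh-treated ones included, was given 24 i.v. injections over 12 weeks from the age of 9 months, followed by 4 weeks without treatment. The study asked how the treatment affects gene expression of microglia in the knock-in mice. WT groups given the same injections covered the case in which the AD mutations are absent. The cortex was digested with papain and the cells were captured on magnetic beads against CD11b, a surface protein of microglia that other macrophages, monocytes and neutrophils also carry. The capture therefore does not separate microglia from border-associated macrophages.

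Border-associated macrophages live at the edges of the brain, in the meninges, the perivascular spaces and the choroid plexus. They are long-lived cells that take up material from blood and cerebrospinal fluid, and they are told apart from microglia by scavenger and endocytic receptors such as the mannose receptor CD206, encoded by *Mrc1*. In bulk RNA from a myeloid fraction their transcripts are diluted by those of the far more numerous microglia. In such RNA, fewer cells of a type and less RNA per cell cannot be told apart, nor can either be told from more RNA of other cells.

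Libraries held 12433402 to 17889654 counts in total. The 7 genes had between 98 and 5596 counts in a library. Levels are given as CPM, the count scaled to the effective library size, and the floor of 3 counts corresponded to 0.169 to 0.226 CPM. Markers of microglia were far above the genes described here: in veh-treated WT mice *P2ry12* was at 2739 ± 118 CPM and *Tmem119* at 1715 ± 137 CPM (SD, n = 3). Libraries differed in markers of cells that a clean CD11b fraction lacks, in particular of the choroid plexus epithelium, and these values are given after the results for the 7 genes.

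*Mrc1* (ENSMUSG00000026712), which encodes a receptor that internalizes mannosylated glycoproteins, lies at chr2:14229392-14332057 on the + strand of GRCm38. *Cd163* (ENSMUSG00000008845), the receptor for haemoglobin bound to haptoglobin, lies at chr6:124304656-124330527 on the + strand. *Folr2* (ENSMUSG00000032725), a folate receptor of macrophages, lies at chr7:101839988-101857194 on the - strand, and *Lyve1* (ENSMUSG00000030787), a receptor for hyaluronan, at chr7:110850607-110863239 on the - strand. *F13a1* (ENSMUSG00000039109), the A subunit of coagulation factor XIII, lies at chr13:36867178-37050244 on the - strand, and *Pf4* (ENSMUSG00000029373), the chemokine platelet factor 4, at chr5:90772435-90773383 on the + strand. *Cbr2* (ENSMUSG00000025150), a carbonyl reductase, lies at chr11:120729489-120732114 on the - strand. Counts cover the exons of each gene. *Folr2* shares part of its exons with *Gm10602*, a gene of the opposite strand that had 23 to 61 counts in a library, against 147 to 401 for *Folr2*. Whether the counting used the strand is not given in the sources used here, so reads from this stretch may not be told apart. The level of *Folr2* per kilobase, which divides by all its exon bases, carries this limit. So do its differences between groups, which rest on the same counts. *F13a1* shares 74 exon bases with *Gm30489*, also of the opposite strand, which had 0 to 3 counts. *Mir511* lies within *Mrc1* and had no count in any library.

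Promoter sequences of RefSeq (GRCm38.p6), the 250 bases before a start site, were matched for 6 of the 7 genes in 8 windows. No window was matched for *Lyve1*. The windows were searched on both strands for GAGGAA, the core of sites bound by PU.1, a transcription factor of the macrophage lineage, which reads TTCCTC on the other strand. The second motif was TGCTGAC, a half-site of MAF factors, which does not overlap the first. The first motif was present in 23.3% and the second in 3.81% of the 32851 windows of this length. The PU.1 core was found in a window of *Mrc1*, *Pf4*, *Cbr2* and *F13a1*, with 3 matches in *Mrc1*, whose first bases were 180, 167 and 35 bases before the start site. *F13a1* and *Folr2* each had a further window, and that of *F13a1* (chr13:37049214-37049463) held no match. The shares over all windows are per window, not per gene. Neither *Cd163* nor *Folr2* had a match, and the MAF half-site was absent from all 8 windows. Shown are 4 windows, of the 3 genes with the highest CPM, whose levels moved together, and of *Folr2*, which departed from them between the strains. Capitals mark the PU.1 core on either strand, and a match is a description of the sequence only. The windows lie at chr2:14229164-14229413 (+) for *Mrc1*, chr13:37050245-37050494 (-) for *F13a1*, chr6:124304401-124304650 (+) for *Cd163* and chr7:101857191-101857440 (-) for *Folr2*.
Mrc1: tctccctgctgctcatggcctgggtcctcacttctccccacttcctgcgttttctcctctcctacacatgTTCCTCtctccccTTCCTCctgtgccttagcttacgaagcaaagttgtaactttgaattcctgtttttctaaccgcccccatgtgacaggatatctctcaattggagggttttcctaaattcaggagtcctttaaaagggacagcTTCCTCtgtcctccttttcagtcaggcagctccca
F13a1: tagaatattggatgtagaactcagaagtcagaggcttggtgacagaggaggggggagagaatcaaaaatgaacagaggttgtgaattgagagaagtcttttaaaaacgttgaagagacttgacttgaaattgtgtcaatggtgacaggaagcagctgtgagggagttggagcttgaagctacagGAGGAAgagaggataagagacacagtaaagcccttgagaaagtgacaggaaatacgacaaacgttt
Cd163: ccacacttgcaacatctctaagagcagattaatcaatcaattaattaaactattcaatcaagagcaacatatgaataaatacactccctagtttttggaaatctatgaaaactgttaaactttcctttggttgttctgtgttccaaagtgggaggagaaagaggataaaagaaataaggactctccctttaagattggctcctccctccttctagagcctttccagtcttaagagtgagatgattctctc
Folr2: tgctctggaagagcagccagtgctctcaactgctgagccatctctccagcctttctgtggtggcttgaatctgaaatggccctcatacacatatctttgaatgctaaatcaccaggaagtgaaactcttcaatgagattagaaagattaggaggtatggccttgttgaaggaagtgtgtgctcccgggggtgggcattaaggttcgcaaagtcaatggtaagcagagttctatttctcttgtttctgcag

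Per kilobase of exon, *Mrc1* had the highest level of the 7 genes in veh-treated WT mice, at 33.6 ± 2.83 CPM per kilobase (SD, n = 3). It was followed by *Pf4* at 25.2 ± 2.58, *Cbr2* at 19.7 ± 2.57, *F13a1* at 14.8 ± 1.22, *Cd163* at 9.17 ± 0.941, *Folr2* at 8.46 ± 0.182 and *Lyve1* at 5.09 ± 0.445. In this order the ranges of *Pf4* (22.3 to 27.4) and *Cbr2* (18.1 to 22.7) and those of *Cd163* and *Folr2* overlapped over the 3 mice, while the other neighbours were apart. In veh-treated AppNL-G-F mice the order was *Mrc1* at 15.2 ± 2.07, *Pf4* at 13.6 ± 3.06, *Cbr2* at 8.78 ± 3.03, *Folr2* at 7.97 ± 1.77, *F13a1* at 7.21 ± 0.953, *Cd163* at 4.40 ± 0.609 and *Lyve1* at 2.47 ± 0.224. *Folr2* thus stood above *F13a1* and *Cd163* in these mice, although its range overlapped that of *F13a1*. The first 5 genes of this order overlapped their neighbours, while *Cd163* and *Lyve1* were apart from theirs.

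Among the receptors, *Mrc1* was at 209, 199 and 234 CPM in veh-treated WT mice 1 to 3, at 305, 315 and 253 CPM in WT mice given rh Bri2 BRICHOS R221E, at 102, 81.6 and 106 CPM in veh-treated AppNL-G-F mice and at 112, 76.9 and 104 CPM in AppNL-G-F mice given it. Every AppNL-G-F library was below every WT library, and the treated WT libraries were above the veh-treated ones. For *Cd163* as well the strains were apart and the treated WT mice stood highest. It was at 49.4, 45.3 and 55.5 CPM in veh-treated and 69.8, 72.3 and 68.4 CPM in treated WT mice, and at 23.3, 21.0 and 27.6 CPM in veh-treated and 22.8, 19.7 and 26.5 CPM in treated AppNL-G-F mice. *Lyve1* was the least abundant receptor per kilobase, at 16.3, 14.2 and 14.0 CPM in veh-treated and 23.5, 27.8 and 19.9 CPM in treated WT mice, and at 7.11, 6.62 and 7.92 CPM in veh-treated and 6.90, 6.26 and 9.21 CPM in treated AppNL-G-F mice. For *Lyve1* too the WT and AppNL-G-F libraries did not overlap. *Folr2* differed from the other receptors. It was at 12.996, 12.86 and 13.40 CPM in veh-treated WT mice and at 16.9, 22.6 and 18.7 CPM in treated WT mice, but the veh-treated AppNL-G-F mice, at 12.2, 9.64 and 15.1 CPM, and the treated ones, at 14.2, 11.95 and 13.7 CPM, lay around the veh-treated WT level.

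Of the secreted or released proteins, *F13a1* was at 102, 90.5 and 106 CPM in veh-treated and 126, 149 and 123 CPM in treated WT mice, and at 50.4, 41.4 and 53.9 CPM in veh-treated and 49.4, 39.9 and 50.4 CPM in treated AppNL-G-F mice. As for *Mrc1*, no AppNL-G-F library reached the WT level. *Pf4* was at 18.7, 16.1 and 19.7 CPM in veh-treated and 26.9, 28.4 and 22.1 CPM in treated WT mice, and at 9.38, 7.87 and 12.2 CPM in veh-treated and 11.7, 10.9 and 14.7 CPM in treated AppNL-G-F mice. The highest AppNL-G-F library stayed below the lowest WT library. The enzyme gene *Cbr2* was at 24.3, 23.99 and 30.1 CPM in veh-treated and 29.2, 36.9 and 28.5 CPM in treated WT mice, whose ranges overlap, and at 10.4, 8.39 and 16.1 CPM in veh-treated and 13.7, 10.99 and 11.47 CPM in treated AppNL-G-F mice. The summed level of the 7 genes was 436 ± 35.7 CPM in veh-treated WT, 594 ± 58.8 CPM in treated WT, 210 ± 31.5 CPM in veh-treated AppNL-G-F and 212 ± 31.0 CPM in treated AppNL-G-F mice (SD, n = 3 each).

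**Figure D1:**
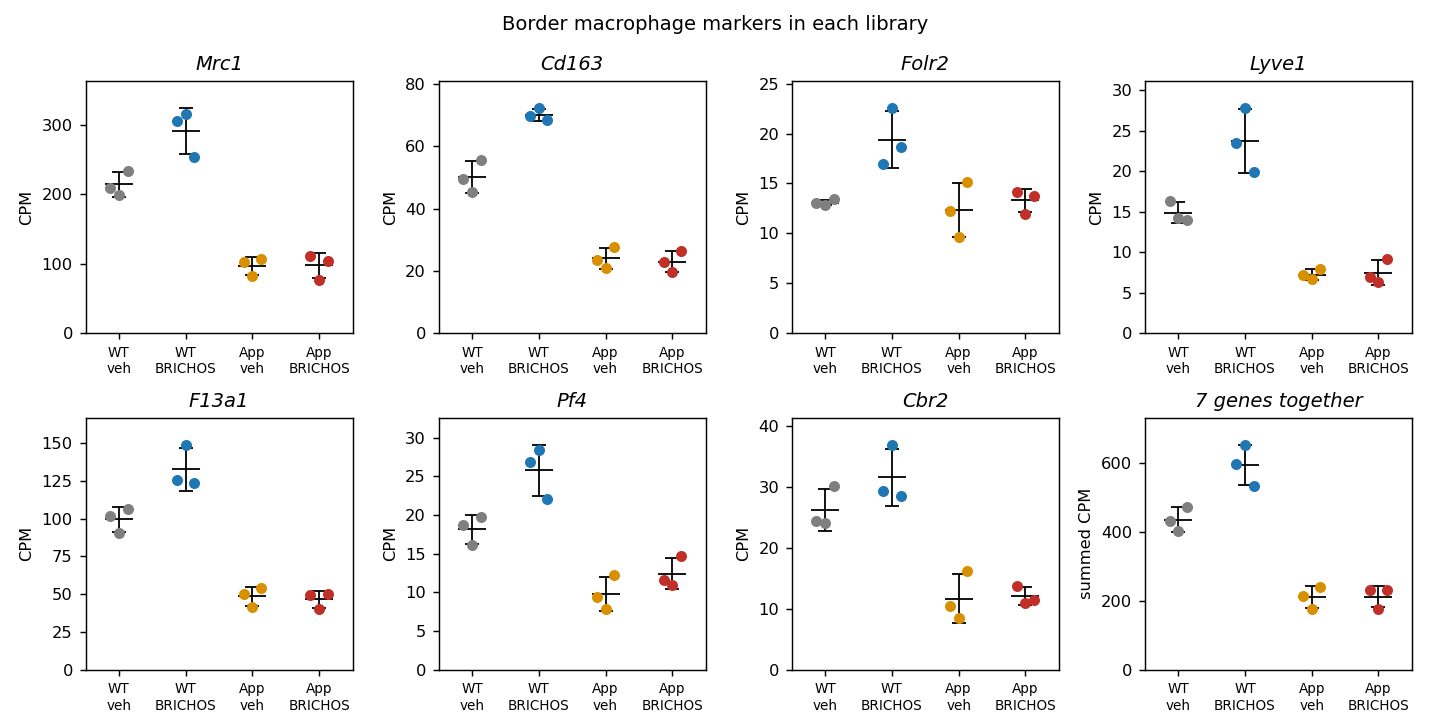
Level (CPM with TMM factors, linear axis from 0) of each of the 7 genes and of their sum in every library, by group, with points for the 3 mice and a black bar for the mean ± SD. The summed level sits between 402 and 473 CPM in veh-treated WT, between 534 and 652 CPM in treated WT and between 177 and 239 CPM in all 6 AppNL-G-F mice, and *Folr2* is the panel in which the veh-treated AppNL-G-F and WT mice overlap.

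In veh-treated mice, 6 of the 7 genes were lower in AppNL-G-F than in WT mice at an adjusted p-value under 0.05 (edgeR's quasi-likelihood test, adjusted over all 15425 genes), and *Folr2* was not. Of all tested genes, 16.9% were called lower in this comparison. *Mrc1* was 2.21-fold lower, a log2 fold change of -1.15 ± 0.143 (SE, adjusted p = 8.01e-05), and *Cbr2* 2.25-fold lower, at -1.17 ± 0.207 (adjusted p = 0.00103). *Cd163* was 2.09-fold lower (-1.06 ± 0.121, adjusted p = 3.81e-05), *Lyve1* 2.06-fold lower (-1.04 ± 0.163, adjusted p = 0.000440) and *F13a1* 2.05-fold lower (-1.04 ± 0.120, adjusted p = 4.26e-05). *Pf4* was 1.85-fold lower (-0.89 ± 0.171, adjusted p = 0.00181). For these 6 genes the 3 AppNL-G-F mice were all below the 3 WT mice, which held for 25.3% of all tested genes. The difference of *Folr2* was -0.09 ± 0.157 (adjusted p = 0.684), with a 95% interval from -0.43 to 0.26, which does not reach the fall of the other genes. The count of 6 was the same with each library left out in turn, and it was 3 with a score of astrocyte genes as a covariate, a fit in which the calls over all genes in either direction fell from 37.0% to 11.5%.

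Between AppNL-G-F and WT mice given rh Bri2 BRICHOS R221E, which share no library with the comparison above, all 7 genes were lower at an adjusted p-value under 0.05, against 21.8% of all tested genes. *Lyve1* was 3.19-fold lower (log2 fold change -1.67 ± 0.162, SE), *Cd163* 3.06-fold lower (-1.61 ± 0.121), *Mrc1* 2.98-fold lower (-1.58 ± 0.144) and *F13a1* 2.85-fold lower (-1.51 ± 0.120). *Cbr2* was 2.61-fold lower (-1.39 ± 0.206) and *Pf4* 2.08-fold lower (-1.06 ± 0.167). *Folr2* was 1.46-fold lower (-0.55 ± 0.154, edgeR adjusted p = 0.0142), the smallest difference of the 7. Its call was lost without treated WT mouse 2 (adjusted p = 0.0657) and without treated AppNL-G-F mouse 2 (adjusted p = 0.0570), while those of the other 6 were kept with each library left out. No AppNL-G-F library overlapped the WT libraries for any of the 7 genes, as for 26.4% of all tested genes. With the choroid plexus or the fibroblast score as a covariate, 4 of the 7 were called, against 18.7% and 11.3% of all genes in either direction, down from 42.5%. The calls of *Cbr2* (-0.82 and -1.33), *Pf4* (-0.69 and -1.05) and *Folr2* (-0.20 and -0.39) were lost. All 6 choroid plexus genes, 5 of 7 fibroblast genes and 7 of 9 monocyte genes were lower in this comparison.

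Averaged over the treatments, with 6 AppNL-G-F against 6 WT mice, the 7 genes were again all lower at an adjusted p-value under 0.05, against 27.9% of all tested genes. The log2 differences were -1.36 ± 0.102 for *Mrc1*, -1.36 ± 0.115 for *Lyve1*, -1.34 ± 0.0855 for *Cd163*, -1.28 ± 0.146 for *Cbr2*, -1.27 ± 0.0848 for *F13a1* and -0.97 ± 0.120 for *Pf4* (SE). *Folr2*, at -0.32 ± 0.110 (adjusted p = 0.0296), was the one of the 7 whose WT and AppNL-G-F libraries overlapped over the 6 mice of each strain. The other 6 did not overlap, as 12.8% of all tested genes in this direction. The call of *Folr2* was lost (adjusted p = 0.0510 to 0.0769) when veh-treated WT mouse 1 or 3, treated WT mouse 2, veh-treated AppNL-G-F mouse 1 or 2, or treated AppNL-G-F mouse 2 was left out. It was also lost with the astrocyte, choroid plexus, fibroblast or oligodendrocyte score as a covariate (-0.27 to -0.13, adjusted p = 0.123 to 0.527).

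In WT mice, the levels after rh Bri2 BRICHOS R221E were above those after veh for all 7 genes, as for 49.1% of all tested genes, and 6 of the 7 had an unadjusted p-value under 0.05, but 0 passed the test after adjustment over all genes. Of all tested genes, 6.55% were higher at an unadjusted p-value under 0.05 and 0% after adjustment. The log2 fold change was 0.68 ± 0.155 for *Lyve1* (SE, edgeR adjusted p = 0.224), a 1.60-fold difference, and 0.57 ± 0.154 for *Folr2* (adjusted p = 0.243), a 1.48-fold difference. *Pf4* was at 0.51 ± 0.164 (adjusted p = 0.287), *Cd163* at 0.49 ± 0.117 (adjusted p = 0.239), *Mrc1* at 0.44 ± 0.140 (adjusted p = 0.283) and *F13a1* at 0.41 ± 0.117 (adjusted p = 0.253). *Cbr2*, the gene whose groups overlapped, was at 0.27 ± 0.197 (adjusted p = 0.647). For the 6 genes the treated and veh-treated mice did not overlap, as for 8.36% of all tested genes. DESeq2's Wald test with all libraries in the fit called *Cd163* (adjusted p = 0.0366) and *Lyve1* (adjusted p = 0.0323), against 0.291% of all genes in either direction, and with only the compared libraries it called 4 of the 7, against 0.496%. With the choroid plexus or fibroblast score as a covariate, the 6 genes at an unadjusted p-value under 0.05 were 2 and 1, against 7.93% and 6.43% of all genes in either direction. Markers of the choroid plexus (3 of 6), fibroblasts (5 of 7) and monocytes (5 of 9) were higher in the same comparison at an unadjusted p-value under 0.05, and 0 of them after adjustment.

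In AppNL-G-F mice, the levels after rh Bri2 BRICHOS R221E and after veh overlapped for all 7 genes, while 13.5% of all tested genes did not overlap. Of the 7, 0 were called at an adjusted or an unadjusted p-value under 0.05 by edgeR, nor after adjustment by DESeq2. Of all tested genes, 10.8% had an unadjusted p-value under 0.05 and 0.00648% an adjusted one. The log2 differences ran from -0.06 for *Cd163* and *F13a1* to 0.34 ± 0.173 for *Pf4* (adjusted p = 0.522). The 95% interval was -0.30 to 0.33 for *Mrc1*, -0.33 to 0.21 for *Cd163*, -0.33 to 0.20 for *F13a1*, -0.32 to 0.41 for *Lyve1* and -0.23 to 0.46 for *Folr2*, while those of *Pf4* (-0.04 to 0.72) and *Cbr2* (-0.41 to 0.52) were wider.

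The difference of the treatment effects, AppNL-G-F minus WT, was a further contrast. All 7 values were below 0, between -0.63 and -0.17, as were those of 47.9% of all tested genes, and 3 of the 7 had an unadjusted p-value under 0.05, against 9.54% of all tested genes in this direction. After adjustment 0 of the 7 passed by edgeR and 0 by DESeq2, and 0.00648% of all tested genes did. The 3 genes were *Cd163* at -0.55 ± 0.169 (edgeR adjusted p = 0.209), *F13a1* at -0.48 ± 0.168 (adjusted p = 0.240) and *Lyve1* at -0.63 ± 0.228 (adjusted p = 0.247). The count was 5 without veh-treated AppNL-G-F mouse 2 (12% of all genes in either direction) and 2 without treated WT mouse 2 (12.3%) or treated AppNL-G-F mouse 2 (12.9%). It was 1 with the astrocyte score as a covariate (6.72%) and 0 with the choroid plexus (12.7%) or fibroblast score (6.02%). In the same contrast, choroid plexus (4 of 6), monocyte (5 of 9), astrocyte (5 of 6), pericyte and smooth muscle (4 of 6), fibroblast (3 of 7) and endothelial (3 of 6) genes were lower at an unadjusted p-value under 0.05. A difference between the strains in the treatment effect was thus not shown for any of the 7 genes after adjustment. Averaged over the strains, the treated mice were above the veh-treated ones for all 7 genes by 0.16 to 0.42 on the log2 scale, as for 48.4% of all tested genes. An unadjusted p-value under 0.05 was reached by 5 of them, against 3.45% of all tested genes in this direction, and an adjusted one by 0 (0% of all tested genes), by edgeR or DESeq2. Without veh-treated AppNL-G-F mouse 3 the count of 5 was 7 (9% of all genes in either direction). It was 3 without either of veh-treated WT mice 1 and 2, treated WT mouse 2, veh-treated AppNL-G-F mouse 2 or treated AppNL-G-F mouse 3 (5.52% to 8.02%).

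**Figure D2:**
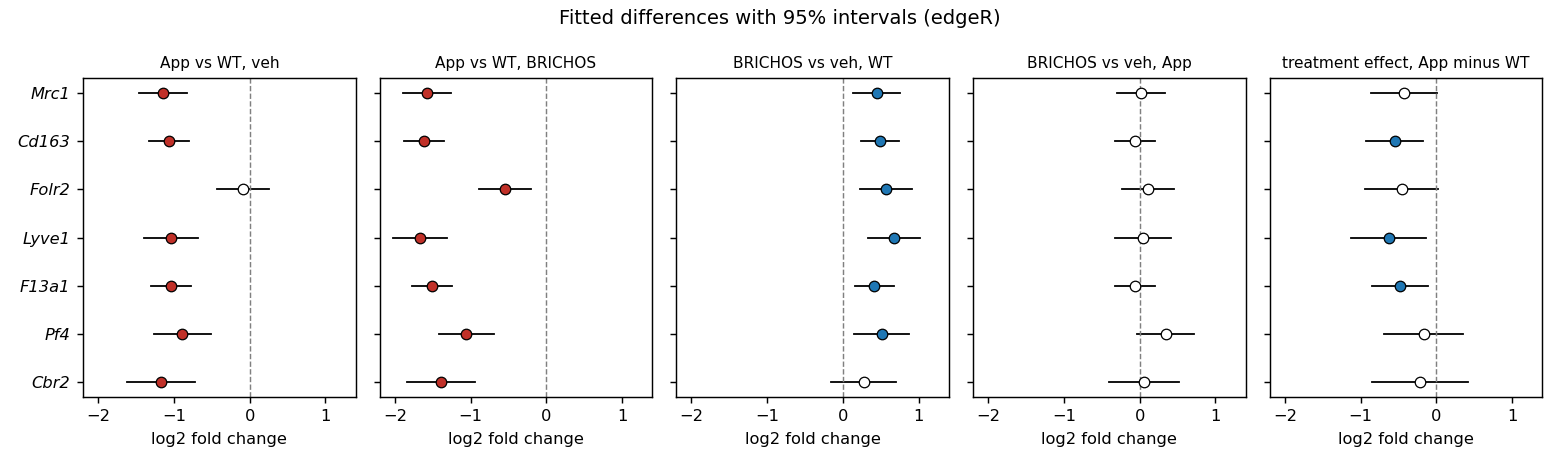
Fitted log2 fold change (x axis, log2 scale) of each of the 7 genes in 4 comparisons and in the difference of the treatment effects, with 95% intervals; red points have an adjusted p-value under 0.05, blue points only an unadjusted one, and white points neither. In veh-treated mice *Folr2*, at -0.09, stands apart from the other genes, which lie between -1.17 and -0.89, and the treatment differences lie between 0.27 and 0.68 in WT mice and between -0.06 and 0.34 in AppNL-G-F mice.

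Because the 7 genes are read from the same libraries, their proportions to one another were also compared, as the level of each in percent of *Mrc1* in the same library. These 6 ratios were added after the levels had been seen, so they are given as a description. A test of the ratios by rearranging the libraries (400 arrangements) was prompted by the same values and is not used here. *Folr2* was at 6.22, 6.46 and 5.73% of *Mrc1* in veh-treated and 5.55, 7.17 and 7.39% in treated WT mice, and at 12.0, 11.8 and 14.2% in veh-treated and 12.7, 15.5 and 13.2% in treated AppNL-G-F mice. All 6 AppNL-G-F mice were above all 6 WT mice. The log2 ratio was 1.05 higher in AppNL-G-F mice, at -2.92 against -3.97, with an SD within groups of 0.162. *Pf4* showed a smaller shift in the same direction, from 8.10 to 9.02% of *Mrc1* in WT mice to 9.18 to 14.2% in AppNL-G-F mice, a difference of 0.39 in the log2 ratio with an SD within groups of 0.157. The other 4 ratios differed by 0.01 for *Lyve1*, 0.03 for *Cd163*, 0.07 for *Cbr2* and 0.09 for *F13a1* when averaged over the treatments, with SDs within groups of 0.0921 to 0.208, and the strains overlapped for each of them. Of the summed levels per kilobase, *Folr2* made up 7.32 ± 0.467% in veh-treated WT and 13.3 ± 0.436% in veh-treated AppNL-G-F mice (SD, n = 3). The exon overlap of *Folr2* with *Gm10602* limits its ratio and its share as well.

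**Figure D3:**
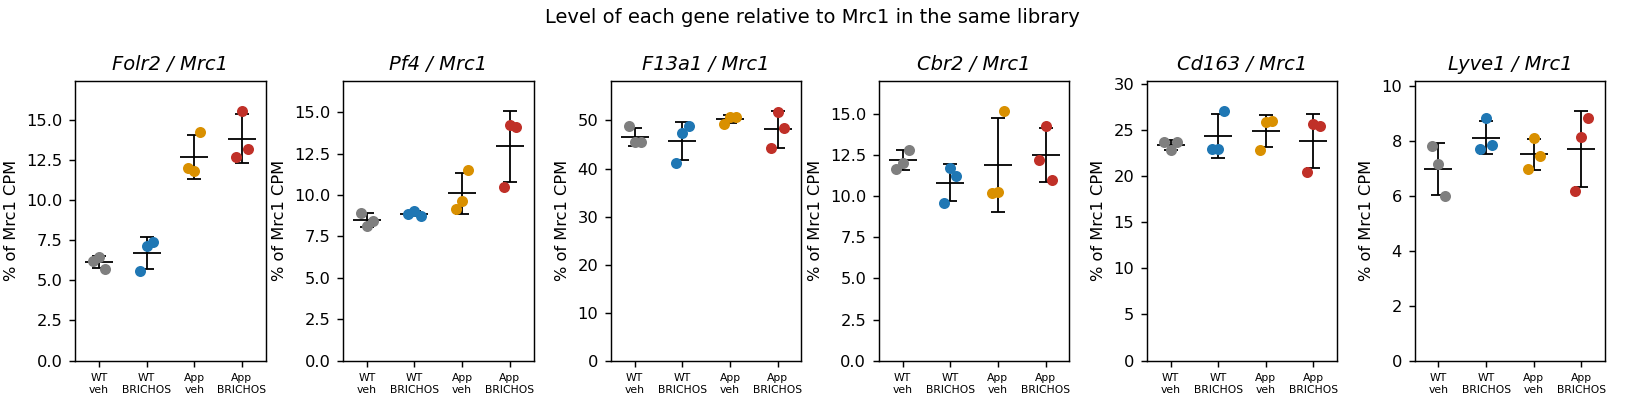
Level of each of the other 6 genes in percent of the *Mrc1* level (CPM) of the same library, by group, with points for the 3 mice and a black bar for the mean ± SD. *Folr2* lies between 5.55 and 7.39% in WT and between 11.8 and 15.5% in AppNL-G-F mice, and the panels of *F13a1*, *Cbr2*, *Cd163* and *Lyve1* overlap between the strains.

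Across the 12 libraries, Pearson's r of log2 CPM between pairs of the 7 genes was between 0.723 and 0.994 with a median of 0.947 over 21 pairs. The 6 pairs with *Folr2* had an r of at most 0.816. The groups and the library itself contribute to these values. After subtraction of the group means, r was between 0.377 (*Cbr2* and *Lyve1*) and 0.904 (*Cd163* and *Pf4*) with a median of 0.741, and that of *Folr2* with *Cbr2* was 0.902. The genes vary together among mice of 1 group as well, by this description. Over the 12 libraries the gene most like *Mrc1* was *Cd209a*, a lectin of the DC-SIGN family (r = 0.987), the gene most like *Cd163* was *Elac1* (0.988), and *Clec4a1*, a C-type lectin, was the most like *F13a1* (0.991) and *Lyve1* (0.984). *Aoah*, an enzyme that deacylates lipopolysaccharide, was the most like *Pf4* (0.971), *Cdkn1c* the most like *Cbr2* (0.973) and *Adam33* the most like *Folr2* (0.935). After subtraction of group means, the genes most like the mean of the 7 were *Zfp160* (0.962), *Brat1* (0.935) and *Bik* (0.931). At most 6 of the first 10 stayed among them when a library was left out, so that this order rests in part on single mice. *Zfp160* ranked 4 or better whichever library was left out. With the group means kept, r was 0.843 for *Zfp160*, 0.687 for *Brat1* and -0.672 for *Bik*. Over the 12 libraries *Bik* thus ran against the 7 genes.

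A wider list of 25 genes reported for border-associated macrophages was read in the same way, and 24 of them were tested. In veh-treated mice 16 were lower and 2 higher in AppNL-G-F than in WT mice at an adjusted p-value under 0.05, against 16.9% lower and 20.1% higher of all tested genes, with a median log2 fold change of -1.002, while the median of all tested genes was -0.02. The lowest p-values were those of *Stab1* (-1.37 ± 0.0980), a scavenger receptor, *Maf* (-1.08 ± 0.0797), a transcription factor of tissue macrophages, *Wfdc17* (1.92 ± 0.161) and the lectin *Mgl2* (-2.00 ± 0.182). *Stab1* fell from 996 ± 41.0 to 386 ± 58.5 CPM and *Maf* from 529 ± 20.1 to 250 ± 17.4 CPM (SD, n = 3), CPM above those of *Mrc1*, and *Maf* is also expressed by microglia. The part of microglia in the falls of *Stab1* and *Maf* was not tested. The lectin gene *Mgl2* fell from 19.7 ± 4.68 to 4.92 ± 0.680 CPM and *Cd209a* from 42.1 ± 5.76 to 13.9 ± 2.36 CPM. The 2 genes that rose were *Wfdc17*, from 12.0 ± 1.23 to 45.5 ± 5.82 CPM, and *Colec12*, a scavenger receptor of the collectin family, from 13.3 ± 1.95 to 60.1 ± 19.5 CPM. In treated mice 20 were lower and 2 higher, against 21.8% and 20.8% of all tested genes, with a median of -1.19.

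In WT mice, 9 of the 24 were higher after rh Bri2 BRICHOS R221E at an unadjusted p-value under 0.05, against 6.55% of all tested genes, and 0 after adjustment by edgeR, with a median log2 fold change of 0.32. DESeq2 called 3 of them with all libraries (0.291% of all genes) and 5 with the compared libraries (0.496%). The lowest p-values were those of *Clec12a* (0.70 ± 0.159, adjusted p = 0.214), an inhibitory lectin, *Wfdc17* (0.68 ± 0.161, adjusted p = 0.238), *Siglec1* (0.75 ± 0.184, adjusted p = 0.239), the sialoadhesin of macrophages, and *Dab2* (0.49 ± 0.133, edgeR adjusted p = 0.243), an adaptor protein of endocytosis. *Stab1* (0.16) and *Maf* (-0.04) were at smaller values. In AppNL-G-F mice 2 were higher and 2 lower at an unadjusted p-value under 0.05, against 490 higher and 1183 lower of all 15425 tested genes, and 0 after adjustment.

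**Figure D4:**
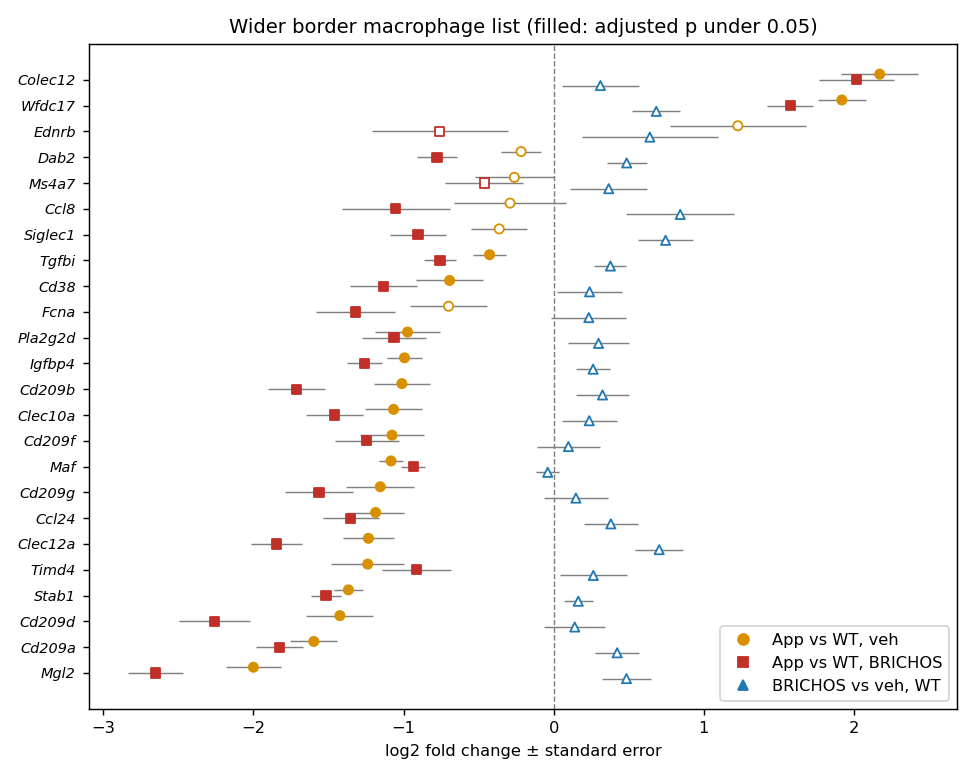
Log2 fold change ± SE (x axis, log2 scale) of the 24 tested genes of the wider list in the strain comparison of veh-treated mice (orange circles) and of treated mice (red squares) and in the treatment comparison of WT mice (blue triangles), with filled symbols at an adjusted p-value under 0.05. Most genes lie left of 0 in both strain comparisons, *Colec12* and *Wfdc17* lie near 2 on the right, and the treatment values lie between -0.04 and 0.84 without a filled symbol.

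The summed level of 8 pan-myeloid genes was between 12196 and 14908 CPM in all 12 libraries. Per 1000 CPM of these genes, the 7 border macrophage genes had 32.4 ± 2.93 CPM in veh-treated WT, 47.2 ± 5.03 in treated WT, 15.3 ± 2.20 in veh-treated AppNL-G-F and 14.7 ± 2.32 in treated AppNL-G-F mice. Of the 8 pan-myeloid genes 4 were higher and 2 lower in veh-treated AppNL-G-F mice. Per 1000 CPM of the homeostatic genes of microglia, the 7 genes had 15.1 ± 1.29 CPM in veh-treated WT and 8.31 ± 0.969 CPM in veh-treated AppNL-G-F mice. Per 1000 CPM of *Csf1r*, the receptor that macrophages need to survive, they had 48.0 to 57.4 and 27.9 to 37.9 CPM. On each of these scales the veh-treated AppNL-G-F mice were below the WT mice. Microglia set most of each scale, so a change in border-associated macrophages and one in microglia cannot be told apart on it. The 12 homeostatic genes of microglia summed to 24438 to 29933 CPM, and 9 of 12 were lower and 2 higher in veh-treated AppNL-G-F than in WT mice at an adjusted p-value under 0.05, against 16.9% lower and 20.1% higher of all tested genes. Genes of activated microglia went the other way, with 9 of 9 higher and a median log2 fold change of 5.14. MHC class II genes, which border-associated macrophages and activated microglia both express, were higher where the 7 genes were lower, with 5 of 6 called in veh-treated AppNL-G-F mice, among them *H2-Aa* at 2.48 ± 0.268 and *H2-Ab1* at 2.32 ± 0.244. In WT mice the treatment comparison went the same way as for the 7 genes, with 4 of 6 higher at an unadjusted p-value under 0.05, against 6.55% of all tested genes, and 0 after adjustment. The sums were 499 to 607 CPM after veh and 739 to 1016 CPM after treatment.

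Marker lists of other cell types also differed between the groups, some in the direction of the 7 genes and some against it. The 6 genes of the choroid plexus epithelium, where some border-associated macrophages live, summed to 1562, 1381 and 5578 CPM in veh-treated WT mice and to 5026, 5605 and 9153 CPM in treated WT mice, against 978 to 2936 CPM in veh-treated and 935 to 1467 CPM in treated AppNL-G-F mice. *Ttr*, transthyretin, made up most of this sum. Between veh-treated strains 0 of these 6 genes were called by edgeR, also at an unadjusted p-value, and the 6 border macrophage genes were called with the choroid plexus score as a covariate as well. Between treated strains all 6 choroid plexus genes were lower. In WT mice 3 of the 6 were higher after treatment at an unadjusted p-value under 0.05 and 0 after adjustment. With the score, their mean log2 level, as a covariate, which was added after seeing the data, 4 of the 7 border macrophage genes were called in treated mice, where the share of all genes called in either direction fell from 42.5% to 18.7%. For the treatment in WT mice, 2 had an unadjusted p-value under 0.05, *Cd163* (0.26) and *Lyve1* (0.65), against 7.93% of all genes in either direction, and *Mrc1* was at 0.26. Veh-treated WT mouse 3, whose choroid plexus level lay in the range of the treated mice, had the highest level of the veh-treated WT mice for 6 of the 7 genes and the lowest for *Lyve1*. It was below all 3 treated WT mice for 6 of the 7 and within their range for *Cbr2* (30.1 CPM). Astrocyte genes, 6 of 6 of which were higher in veh-treated AppNL-G-F than in WT mice, were a further score, and with it 3 of the 7 genes (*Mrc1*, *Cd163* and *F13a1*) were called between these groups, against 11.5% of all genes in either direction. The fitted differences of the genes no longer called were -1.08 for *Lyve1*, -0.80 for *Cbr2* and -0.56 for *Pf4*. Fibroblast genes, 5 of 7 of which were higher after treatment of WT mice without adjustment, summed to 12.4 to 17.2 CPM in veh-treated and 22.1 to 56.3 CPM in treated WT mice, and with their score as a covariate 1 of the 7 genes, *Lyve1* (0.64), had an unadjusted p-value under 0.05 for the treatment in WT mice, against 6.43% of all genes. Shares of all tested genes called lower, for the counts that follow, are 16.9% between veh-treated and 21.8% between treated strains. Of the endothelial genes 5 of 6 were lower in both strain comparisons, with sums of 575 to 648 CPM in veh-treated WT and 429 to 572 CPM in veh-treated AppNL-G-F mice. Of the pericyte and smooth muscle genes 2 of 6 were lower between veh-treated and 6 of 6 between treated strains, where the sums were 239 to 313 and 75.2 to 122 CPM. The 5 oligodendrocyte genes summed to 9326 to 16455 CPM in veh-treated WT and 2905 to 5284 CPM in veh-treated AppNL-G-F mice, and 2 of the 5 were lower. The part of these cell types in the levels of the 7 genes was not tested. Where a score itself differs between the groups compared, its covariate fit cannot separate the cell type from the group. This holds whether a call is kept or lost.

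Monocyte genes had their highest level in treated WT mice and their lowest in AppNL-G-F mice, with summed levels of 176 to 210, 258 to 313, 137 to 151 and 105 to 140 CPM in veh-treated WT, treated WT, veh-treated AppNL-G-F and treated AppNL-G-F mice. Of these 9 genes 5 were lower between the veh-treated and 7 between the treated strains, and 5 were higher in treated WT mice at an unadjusted p-value only. *Fn1* made up most of the sum, and *Ccr2*, the chemokine receptor of inflammatory monocytes, was at 12.9 ± 0.749, 28.8 ± 7.38, 6.58 ± 0.151 and 6.999 ± 1.59 CPM (SD, n = 3). *Ly6c2*, a surface marker of the same monocytes, was at 2.92 ± 2.18, 3.58 ± 1.57, 4.14 ± 4.10 and 6.27 ± 5.68 CPM in the same order, with no call in any of these comparisons by edgeR, adjusted or not, and 5 to 192 counts in a library. The part of monocytes in the levels of the 7 genes was not tested. Of neutrophil genes, 9 of 9 were lower in veh-treated AppNL-G-F mice, and their sum ran from 39.6 to 446 CPM among veh-treated WT mice and from 15.1 to 39.4 CPM among veh-treated AppNL-G-F mice. *Pf4* and *F13a1* are also genes of platelets. The platelet gene *Ppbp* had 0 to 19 counts in a library, and *Gp1bb* had 0 in all but the treated WT group, where it reached 3. Of the 4 tested platelet genes 2 were lower and 0 higher between veh-treated AppNL-G-F and WT mice. *Gp9*, the most abundant, fell from 18.4 ± 1.91 to 4.21 ± 0.592 CPM between veh-treated WT and AppNL-G-F mice and was at 18.2 ± 2.16 CPM in treated WT mice.

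**Figure D5:**
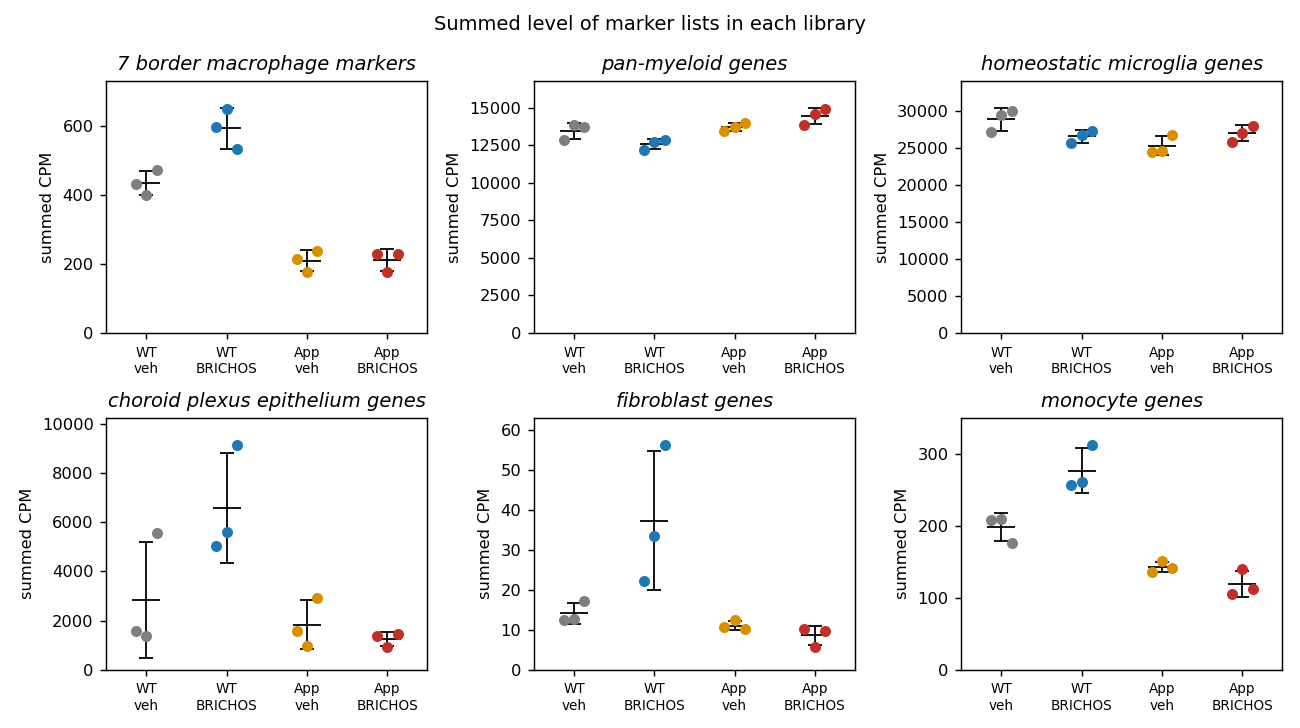
Summed level (CPM, linear axis from 0) of the 7 border macrophage markers and of 5 other marker lists in every library, by group, with points for the 3 mice and a black bar for the mean ± SD. The pan-myeloid sum lies between 12196 and 14908 CPM in all libraries, while the choroid plexus, fibroblast and monocyte sums are, like the 7 genes, highest on average in treated WT mice, and veh-treated WT mouse 3 reaches 5578 CPM for the choroid plexus list.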

How the data were processed

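CD11b-positive cells of 12 mice were sequenced with a stranded mRNA kit. The authors used Cutadapt for trimming, STAR for alignment to GRCm38 and featureCounts 1.5.1 for counting (version per the submitters' processing notes), and the deposited values are raw counts, not normalized. The version of STAR differs between the sources, and whether strand or multiply aligned reads were used is not given in the sources used here. Libraries were grouped by their labels. Of 55487 listed genes 55227 were matched to a symbol (GENCODE annotation of GRCm38) and 26314 had no count in any library.

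Counts were analysed with edgeR 4.0.16 in R 4.3.3: filterByExpr with a minimum count of 10, TMM factors, and glmQLFit on all 12 libraries with 1 coefficient per group. Contrasts were tested with glmQLFTest and p-values adjusted by Benjamini and Hochberg over all tested genes at a threshold of 0.05. DESeq2 1.42.0, the tool of the study's methods, was an alternative. CPM were computed with TMM factors, and log2 CPM with a prior count of 2. Levels per kilobase used the union of exons. No column of samples was left unmapped. Replicates of a group differed by more than the sampling noise of the counts (chi-square per degree of freedom 5.81 to 34.1). The tests were also run on simulated counts with known changes in some genes of a single group. These counts held no differences in cell mixture, so they check the code only. Depth limits single values through counting error, and the mice add their own spread. The floor of 3 counts marks only levels near absence.

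The 7 genes, the marker lists and the tests were chosen with earlier results of these data known. The rule for named genes took the 7 genes, of each list at most the 4 called genes with the lowest p-values and the most abundant ones, and the genes most like the 7 by r, of which the first are printed. Outside this rule and with their values seen, *Cd209a*, *Colec12*, *Clec12a*, *Siglec1*, *Dab2*, *Ccr2*, *Ly6c2*, *Ppbp*, *Gp1bb*, *P2ry12* and *Tmem119* were named, some of them as defining markers. Alternatives were the size factors of DESeq2, its Wald test, edgeR with only the compared libraries, no filter or at least 10 counts in every library, the replicate number as a block, scaling to pan-myeloid genes, an astrocyte score as covariate, a prior count of 0.5 or no subtraction of group means for r, and each library left out. Covariates for choroid plexus, fibroblast and oligodendrocyte scores and the ratios to *Mrc1* were added after seeing the data. Columns of the authors' own comparisons were not used.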

Additional observations from a re-analysis of the deposited data

Results flagged for a closer look

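In 3 of the 7 genes the effect of rh Bri2 BRICHOS R221E differed between the strains at an unadjusted p-value under 0.05 of the interaction contrast, against 9.54% of all tested genes in this direction, and in none after adjustment over all genes. The difference, AppNL-G-F minus WT, was -0.55 for *Cd163* (edgeR adjusted p = 0.209), -0.48 for *F13a1* (adjusted p = 0.240) and -0.63 for *Lyve1* (adjusted p = 0.247) on the log2 scale. In each of these genes the 3 treated WT mice were above the 3 veh-treated WT mice, and treated and veh-treated AppNL-G-F mice overlapped. With the choroid plexus or the fibroblast score as a covariate, 0 of the 7 genes reached an unadjusted p-value under 0.05 for this contrast, against 12.7% and 6.02% of all genes. Groups of 3 mice are too small for a search for single outlying libraries.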

How the results depend on the processing

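The direction of the strain differences held for all 7 genes under every alternative run, except that *Folr2* in veh-treated mice was at 0.062 without veh-treated AppNL-G-F mouse 2. Of the 7 genes, 3 were called in veh-treated mice with the astrocyte score as covariate (wider list: 10 of 24), where the share of all genes called fell from 37.0% to 11.5%. In treated mice 4 were called with the choroid plexus or the fibroblast score (wider list: 14 and 12), where that share fell from 42.5% to 18.7% and 11.3%. For the treatment in WT mice, DESeq2 called 2 of the 7 genes with all libraries (0.291% of all genes) and 4 with the compared ones (0.496%), and 3 and 5 of the wider list. The number at an unadjusted p-value under 0.05 was 2 with the choroid plexus score (7.93%) and 1 with the fibroblast score (6.43%). In AppNL-G-F mice that number was 1, in place of 0, without a filter (6.79% of all genes) and with the choroid plexus score (11.5%). With a library left out it was 0 to 1, and 1 without veh-treated AppNL-G-F mouse 3 (13.3%) or treated AppNL-G-F mouse 2 (7.14%). For the difference of the treatment effects it was 1 with the astrocyte score (6.72% of all genes, 14.8% without it) and 5 scaled to pan-myeloid genes (18.2%). It was 0 with the choroid plexus or fibroblast score (12.7% and 6.02%) and 2 to 5 with a library left out (11.1% to 16.9%). For the treatment averaged over strains it was 3 with the astrocyte, choroid plexus or fibroblast score (6%, 6.59% and 9.13% of all genes) and 3 to 7 with a library left out (5.35% to 9.90%). Of the 10 genes most like the 7, 0 remained without subtracting group means and 3 to 6 with a library left out, in place of 10.

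Signs turned mainly in AppNL-G-F mice, where the treatment differences are near 0. They were -0.13 for *Cbr2* with the astrocyte score, -0.058 for *Mrc1*, -0.014 for *Cbr2* and -0.033 for *Lyve1* scaled to pan-myeloid genes, 0.025 for *Cd163* and 0.0095 for *F13a1* with the choroid plexus score, and -0.0068 for *Mrc1* with the oligodendrocyte score. With a library left out they ran from -0.094 to 0.17 for *Mrc1*, -0.18 to 0.049 for *Cd163*, -0.16 to 0.047 for *F13a1*, -0.14 to 0.36 for *Cbr2*, -0.038 to 0.28 for *Folr2* and -0.13 to 0.16 for *Lyve1*, and those of *Folr2* between veh-treated strains from -0.26 to 0.062. With the choroid plexus score, *Cbr2* was at -0.070 for the treatment in WT mice, and the difference of the treatment effects was 0.15 for *Pf4* and 0.28 for *Cbr2*, which without a library ran from -0.30 to 0.021 and from -0.40 to 0.091. Scaling to pan-myeloid genes moved the median of all genes to -0.24 between the treated strains, where the 7 genes stayed lower, and from 0.0078 to -0.067 for the treatment in AppNL-G-F mice, a shift like that of *Mrc1*, *Cbr2* and *Lyve1*. Causes of these changes were not tested.

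The correlations of same-numbered mice were all over 0.1 for 1 of the 6 pairs of groups (veh-treated WT and treated AppNL-G-F, 0.264, 0.136 and 0.168), a pair not compared directly, so the numbers were not taken to pair the mice. In a replicate block fit, the adjusted counts of the 7 genes in the strain comparisons were 6 and 7, as without it (38.8% and 44.2% of all genes in either direction), and that at an unadjusted p-value under 0.05 for the difference of the treatment effects was 4 (17.2% of all genes).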
